A study of Mus musculus with 10 samples.

Results

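C1qa and C1qb encode the A and B chains of C1q, the recognition protein that opens the classical pathway of complement. The members were the features whose single gene symbol in the array's platform annotation is C1qa or C1qb, which gave 2 genes with 1 feature each (Entrez identifiers 12259 and 12260) among the 8905 genes and unnamed features tested. The arrays also carry C1qc (Entrez identifier 12262), the remaining chain of the protein, which is no member but is set beside the other two throughout. The members were chosen with their log ratios in untreated tumour-associated macrophages against peritoneal cells in view, so these ratios are given as a description, without a test.

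C1q is built from A, B and C chains that trimerise through collagen-like stalks and end in globular heads. The heads bind antibody on a target, apoptotic cells and other ligands, and the attached proteases C1r and C1s then cleave C4 and C2. Unlike most complement proteins, which come largely from the liver, C1q is made mainly by macrophages and dendritic cells, and macrophages of tissues and tumours are known for it.

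The study hybridised 10 spotted cDNA arrays of the 2-colour kind, so that every array sets total RNA of one condition against that of another. C57/6N mice aged 8 weeks gave peritoneal exudate cells (PEC) and, 3 weeks after a tumour was implanted, tumour-associated macrophages (TAM), and in both cases the adherent cells were kept in culture. Cells were untreated or had received 100 ng/mL of lipopolysaccharide (LPS), a bacterial cell wall component that activates macrophages, for 4 hours. The number of mice and any pooling were not given in the sources used here, and cells were enriched by adherence. Untreated TAM were set against untreated PEC on 4 arrays (TAM-b, TAM-3, TAM-8 and TAM-2R), PEC with LPS against untreated PEC on 2 (PEC1 and PEC2), TAM with LPS against untreated TAM on 2 (TAM-trial and TAM-16), and TAM with LPS against PEC with LPS on 2 (TAM1 and TAM7). Whether the arrays of a comparison hold RNA of different animals or cultures is not in the labels. A p-value here therefore measures spread between arrays alone, which may be technical, and the small number of arrays bounds the precision of each mean.

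Each value is a log2 ratio of the channels and gives no level in either condition, so whether a defining marker of macrophages was present cannot be read from it. The labels name no dyes, and the direction of every ratio is therefore likely and not certain. Of 26 genes known to be raised by LPS in macrophages, 23 lay above 0 on PEC1 and 26 on PEC2 when channel 2 was read over channel 1 (medians 1.69 and 3.10), and this reading was used. On TAM-2R and TAM1 the labels give the conditions in exchanged channels, and the sign of these arrays was turned. TAM-2R then correlated at r of 0.039 to 0.113, over all genes, with the other arrays of its comparison, and TAM1 at r = 0.308 with TAM7. Arrays that were not turned also agreed poorly with each other. Their r was 0.064 for TAM-3 with TAM-8, 0.087 for TAM-b with TAM-3 and 0.33 for TAM-b with TAM-8. It was 0.096 for TAM-trial with TAM-16 and 0.285 for PEC1 with PEC2. On each array 4.4% to 49.1% of the variance of the deposited ratios went with a feature's place, meaning its feature number modulo 96. In bulk RNA of this kind, fewer cells of a type and less RNA per cell cannot be told apart.

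The sequences upstream of C1qb and C1qc are shown here. The ratios of these 2 genes had the highest correlation among the 3 chains (r = 0.96 over 10 arrays, and 0.951 with the exchanged arrays not turned). With feature position removed, a step described with the results, theirs was the lowest of the 3 pairs (r = 0.741). In the RefSeq annotation of GRCm38.p6, C1qb, C1qc and C1qa follow each other on chromosome 4 with no other protein-coding gene between them. The lines give the 250 bases before the start of each transcript, 5′ to 3′ on the minus strand, at chr4:136886201-136886450 for C1qb and chr4:136892915-136893164 for C1qc. Capitals mark matches on either strand to GAGGAA, the core that the macrophage factor PU.1 binds, or to the pattern of an NF-kB site (GGGA, any 4 bases, CC).
C1qb: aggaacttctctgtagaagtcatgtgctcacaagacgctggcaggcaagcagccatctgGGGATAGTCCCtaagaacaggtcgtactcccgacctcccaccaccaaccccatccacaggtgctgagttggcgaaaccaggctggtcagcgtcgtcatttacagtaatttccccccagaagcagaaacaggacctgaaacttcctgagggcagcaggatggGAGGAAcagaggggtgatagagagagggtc
C1qc: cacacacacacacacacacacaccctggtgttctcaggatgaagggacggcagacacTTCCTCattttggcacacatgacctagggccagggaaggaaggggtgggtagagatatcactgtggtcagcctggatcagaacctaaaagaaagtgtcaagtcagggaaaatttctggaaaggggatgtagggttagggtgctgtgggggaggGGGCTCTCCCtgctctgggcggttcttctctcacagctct

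The PU.1 core began 30 bases before the start in C1qb and 193 before it, on the opposite strand, in C1qc. Of 32851 RefSeq windows of this length, 23.3% held that core. The NF-kB pattern began 191 bases before the start in C1qb, where matches on both strands overlap each other, and 40 before it in C1qc, against 17.6% of all windows. Neither window held a repeat bound by interferon regulatory factors (GAAA, any 2 bases, GAAA, in 2.98% of all windows), the composite of an ETS and an interferon regulatory factor site (GGAA, any 2 bases, GAAA, 2.3%), a MAF recognition element (TGCTGAC, 3.81%) or an AP-1 site (TGANTCA, 6.75%). A match is a run of letters and no evidence that a factor binds there.

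In untreated TAM, both members and C1qc were higher than in untreated PEC on every array. C1qa had log2 ratios of 2.23 on TAM-b, 1.497 on TAM-2R, 2.33 on TAM-3 and 2.42 on TAM-8. Its mean was 2.12 ± 0.42 (SD, n = 4), or 4.35-fold, and TAM-2R, the exchanged array, was the lowest. C1qb had log2 ratios of 0.98 on TAM-b, 0.96 on TAM-2R, 1.40 on TAM-3 and 1.27 on TAM-8, with a mean of 1.15 ± 0.22 (SD, n = 4), or 2.22-fold. The A chain thus stood above the B chain on each of these 4 arrays, by 0.54 to 1.25, and the ranges of the 2 genes did not overlap. Of all genes, 8.77% were above 0 on all 4 arrays.

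C1qc lay between the members on each of the 4 arrays. Its log2 ratios were 1.28 on TAM-b, 1.38 on TAM-2R, 2.001 on TAM-3 and 1.64 on TAM-8. Its mean of 1.58 ± 0.32 (SD, n = 4), or 2.98-fold, did not pass the test across all genes (limma, adjusted p = 0.0853), which called 0.46% of all genes in this comparison. It passed in only 1 of 15 alternatives, a fit of all 10 arrays as a loop of conditions (1.71, limma, adjusted p = 0.0434). Those in which it did not pass include its own arrays alone (limma, adjusted p = 0.37) and feature position removed (1.16, limma, adjusted p = 0.351). On the 4 arrays of TAM over PEC, C1qa was among the highest 1.83% to 7.22% of all genes. There C1qb was among the highest 8.92% to 23.3% and C1qc among the highest 5.23% to 17.8%. When TAM-2R and TAM1 were left as deposited, the means of C1qa and C1qb kept their sign and fell to 1.37 and 0.67, and that of C1qc fell to 0.89 (limma, adjusted p = 0.648). The deposited ratios of TAM-2R were -1.497 and -0.96 before turning.

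**Figure D1:**
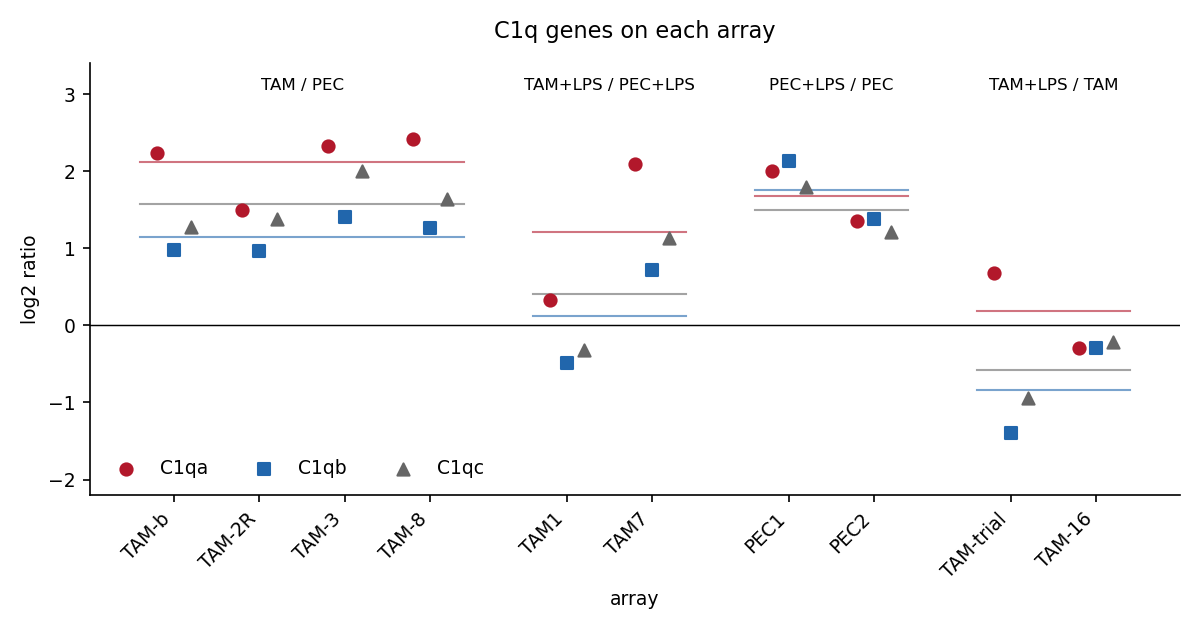
Log2 ratio (vertical axis) of C1qa, C1qb and C1qc on each of the 10 arrays (horizontal axis), grouped by the conditions compared; points are single arrays and horizontal lines are means of a comparison. All 3 genes lie above 0 on every array of TAM over PEC and of PEC with LPS over PEC. C1qb and C1qc lie below 0 on both arrays of TAM with LPS over TAM, and C1qa lies above 0 on both arrays of TAM with LPS over PEC with LPS.

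The size of the C1qa difference depended on whether the median of the features at its place was subtracted. The 97 features that share the place of C1qa had medians of 1.77 on TAM-b, 0.82 on TAM-2R, -0.64 on TAM-3 and 0.84 on TAM-8. With these medians removed, C1qa was at 0.41, 0.73, 2.84 and 1.60 on the same arrays, with a mean of 1.40 ± 1.08 (SD, n = 4). All 4 values stayed above 0, and their spread was wider than before. C1qb had a mean of 1.16 ± 0.56 and C1qc one of 1.16 ± 1.09 (SD, n = 4) after the same step, each above 0 on 4 of 4 arrays. The lead of C1qa over C1qb was then seen only on TAM-3 (2.84 against 0.98), while both were at 0.73 on TAM-2R and C1qa was the lower on TAM-b and TAM-8. This step was chosen after the data had been seen.

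**Figure D2:**
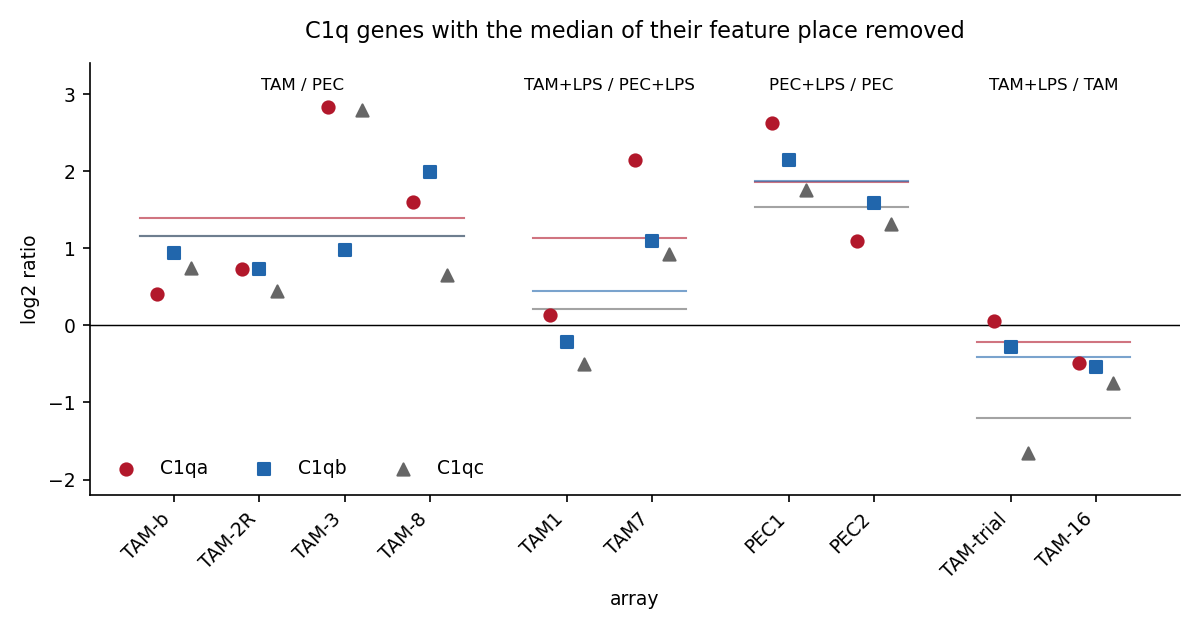
The same 10 arrays and genes, with the median log2 ratio of the features at the same place subtracted on each array and the array median added back (vertical axis, log2 ratio). The values of TAM over PEC remain above 0, and the order of the genes differs from array to array.

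With LPS in PEC both members were above 0 on both arrays, and neither passed the test across all genes. C1qa had log2 ratios of 1.999 on PEC1 and 1.36 on PEC2, with a mean of 1.68 ± 0.45 (SD, n = 2), or 3.2-fold. C1qb had log2 ratios of 2.13 on PEC1 and 1.38 on PEC2, with a mean of 1.75 ± 0.53 (SD, n = 2), or 3.37-fold. The chains stood close together here, with C1qc at 1.80 and 1.21, so that the 3 genes spanned 0.34 on PEC1 and 0.17 on PEC2. The 95% intervals from the fit were 0.53 to 2.83 for C1qa and 0.72 to 2.79 for C1qb (limma, adjusted p = 0.427 and 0.406). Of all genes, 0.0112% were called here and 31.4% were above 0 on both arrays. C1qa and C1qb were among the highest 2.85% to 5.32% of all genes on these arrays.

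With LPS in TAM neither member passed the test. C1qa had a log2 ratio of 0.69 on TAM-trial and -0.30 on TAM-16, with a mean of 0.19 ± 0.70 (SD, n = 2). C1qb had one of -1.40 on TAM-trial and -0.29 on TAM-16, with a mean of -0.84 ± 0.79 (SD, n = 2). C1qc followed C1qb, at -0.94 and -0.21, with a mean of -0.58 ± 0.51 (SD, n = 2). The arrays differed in how far the chains parted: the 3 genes spanned 2.09 on TAM-trial (print v9p2) and 0.09 on TAM-16 (print v3p6). The intervals reached from -0.96 to 1.34 for C1qa, from -1.88 to 0.19 for C1qb and from -1.61 to 0.46 for C1qc (limma, adjusted p = 0.966, 0.838 and 0.889), in a comparison where 0% of all genes were called by limma and 497 had an unadjusted p under 0.05. Of all genes, 22.4% were above 0 on both arrays, and none of the 3 chains was. The median over all genes was itself below 0, at -0.13. On TAM-16, 56.1%, 55.4% and 51.1% of all genes were at or above C1qa, C1qb and C1qc, which places them near the middle. On TAM-trial these shares were 24.9%, 89.96% and 80.8%. The mean of C1qa was -0.30 without TAM-trial and -0.41 with a dye term in the fit. On TAM-trial the features at the place of C1qa had a median of 0.62 and those at the place of C1qb one of -1.13. Those at the place of C1qc had a median of 0.71. With these medians removed, C1qa was at 0.05, C1qb at -0.28 and C1qc at -1.66 on that array. The 3 genes then still spanned 1.71, and C1qc no longer lay close to C1qb.

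The LPS responses of TAM and PEC were set against each other directly. The response in TAM was lower than that in PEC by a log2 difference of -1.49 for C1qa (95% interval -3.11 to 0.14), -2.60 for C1qb (-4.06 to -1.14) and -2.08 for C1qc (-3.54 to -0.61). None passed the test across all genes (limma, adjusted p = 0.752, 0.719 and 0.719), which called 0% of genes, with 612 at an unadjusted p under 0.05. C1qb and C1qc were above 0 on both arrays of PEC and below 0 on both of TAM, as were 8.84% of all genes. For C1qb the difference was -1.70 in the loop fit and -1.66 within print v3p6.

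After LPS, the difference between TAM and PEC was measured on arrays of its own, and neither member passed the test. C1qa had log2 ratios of 0.33 on TAM1 and 2.09 on TAM7, with a mean of 1.21 ± 1.25 (SD, n = 2), or 2.31-fold (limma, 95% interval 0.06 to 2.35, adjusted p = 0.516). C1qb had log2 ratios of -0.48 on TAM1 and 0.72 on TAM7, with a mean of 0.12 ± 0.85 (SD, n = 2; interval -0.91 to 1.15, adjusted p = 1 by limma). C1qc was at -0.32 and 1.14, with a mean of 0.41 ± 1.03 (SD, n = 2; interval -0.63 to 1.45, adjusted p = 0.986 by limma). All 3 genes were higher on TAM7 (print v9p2) than on the exchanged array TAM1 (print v3p6), by more than 1 log2 unit, and C1qa was the highest of them on both. With TAM1 left as deposited, C1qa would be the lowest of the 3 on that array, and the means would be 0.88 for C1qa, 0.60 for C1qb and 0.73 for C1qc. Of all genes, 0.0674% were called and 32.9% were above 0 on both arrays. Within print v3p6, which holds TAM1 alone of this comparison, the means of C1qb and C1qc were -0.48 and -0.32.

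The 4 comparisons close a loop and together give a level for each condition relative to untreated PEC. For C1qa these levels were 1.52 ± 0.42 in PEC with LPS, 2.20 ± 0.33 in TAM and 2.56 ± 0.46 in TAM with LPS (SE, 10 arrays, log2). For C1qb they were 0.98 ± 0.47 in TAM with LPS, 1.31 ± 0.43 in PEC with LPS and 1.38 ± 0.33 in TAM (SE, 10 arrays, log2). For C1qc they were 1.24 ± 0.40 in PEC with LPS, 1.39 ± 0.43 in TAM with LPS and 1.71 ± 0.31 in TAM. Untreated PEC were thus the lowest of the conditions for each chain. The order of the others differed, since C1qa was highest in TAM with LPS and C1qb and C1qc in untreated TAM. These levels rest in part on the untreated comparison in view of which the members were chosen.

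Neighbours in these orders above untreated PEC did not differ beyond their error. For C1qa, TAM exceeded PEC with LPS by 0.69 (95% interval -0.33 to 1.70), and TAM with LPS exceeded TAM by 0.36 (-0.57 to 1.28). For C1qb, TAM exceeded PEC with LPS by 0.07 (-0.97 to 1.10), and TAM with LPS differed from PEC with LPS by -0.33 (-1.28 to 0.62). The level of C1qb in TAM with LPS over PEC had an interval of -0.06 to 2.01. The routes round the loop disagreed most for C1qb, which reached a level of 0.31 in TAM with LPS by way of TAM and 1.87 by way of PEC with LPS, a gap of -1.57 ± 0.86 (SE). The same gap was -0.57 ± 0.96 for C1qa and -0.91 ± 0.87 for C1qc (SE). With the exchanged arrays not turned, untreated PEC were again the lowest, and the levels in TAM were 1.51 ± 0.59 for C1qa and 1.03 ± 0.47 for C1qb (SE).

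**Figure D3:**
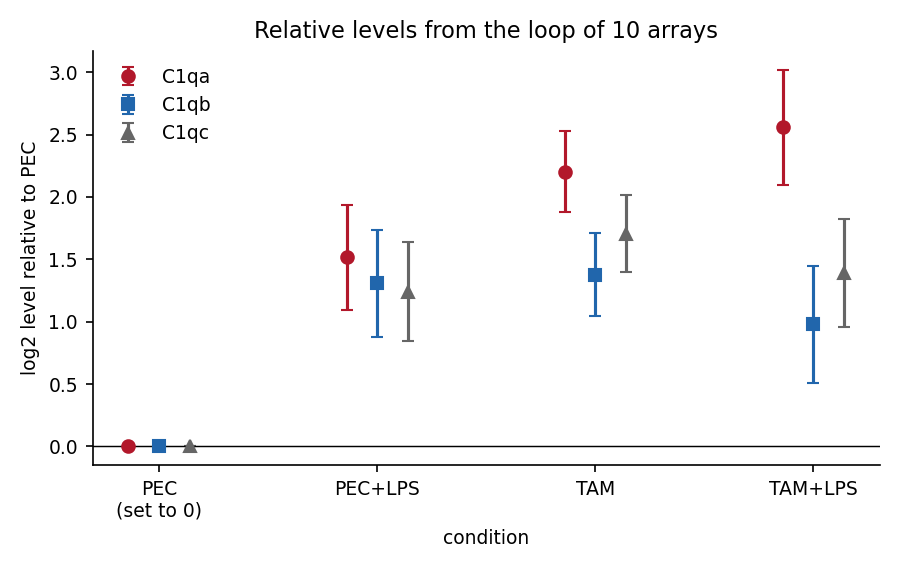
Level of C1qa, C1qb and C1qc in each condition (horizontal axis) relative to untreated PEC, on a log2 scale (vertical axis), from a fit of the loop of 10 arrays; points are estimates and bars are standard errors. Untreated PEC, set to 0, are lowest for each gene, and C1qa is above the other chains in TAM and in TAM with LPS.

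Across the 10 arrays C1qc was the named gene whose ratios were most like those of the members. Its Pearson r with the mean of C1qa and C1qb was 0.975, first of 6793 named genes, against a median of 0.071 over all of them. The next were Rce1, a protease that processes prenylated proteins (r = 0.896), Sec61b, a subunit of the channel that passes secreted proteins into the endoplasmic reticulum (0.893), H2-Eb1, a chain of MHC class II (0.889), and Cuta (0.887). C1qc remained first when the exchanged arrays were not turned (r = 0.979) and without TAM-trial and TAM-16, the arrays farthest from the median (r = 0.965 over 8 arrays). By Spearman's rho it was at rank 5 (0.891), where Fkbp4, a co-chaperone, led (0.939), and its rank was 13 with feature position removed (r = 0.858, against 0.953 for the highest).

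Singly, and by Pearson r, the chains had different companions apart from C1qc. The genes most like C1qa were L3mbtl2 (r = 0.919), Mif, a macrophage cytokine (0.915), C1qc (0.859), Numbl (0.858) and Tarbp2 (0.853). Those most like C1qb were Sec61b (0.975), C1qc (0.96), the MHC class II chain H2-Aa (0.934), Sh3bgrl3 (0.932) and the peroxiredoxin Prdx2 (0.93). The companions changed with the measure. By Spearman's rho C1qc was at rank 59 for C1qa (0.758) and rank 30 for C1qb (0.903). Of the genes named, only Mif and Tarbp2 for C1qa and Prdx2 for C1qb were among the 5 highest by rho. C1qa and C1qb correlated with each other at r = 0.754 (rho = 0.624), and at 0.707 without TAM-16 and TAM1. These likenesses are descriptions over 10 arrays that share conditions and arrays' own biases, and no p is given.

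**Figure D4:**
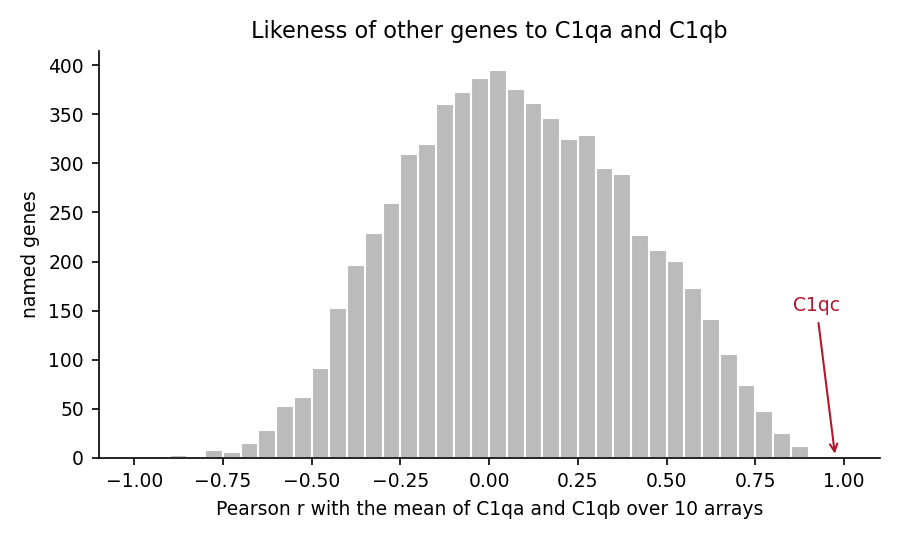
Number of named genes (vertical axis) by their Pearson r with the mean log2 ratio of C1qa and C1qb over the 10 arrays (horizontal axis). The arrow marks C1qc at r = 0.975, beyond the next highest gene at 0.896.

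The other measured complement genes lay on both sides of 0. Of the 60 complement genes listed by role, 32 were measured. Without the 3 C1q genes, 29 remained, with 12 above 0 and 17 below in untreated TAM over PEC (median -0.16, against -0.02 over all genes) and 15 above and 14 below with LPS in PEC (median 0.12, against -0.04). Of the 11 listed for the classical pathway, 4 were measured, the C1q chains and C2, a protease cleaved by C1s. C2 had log2 ratios from -0.33 to 1.17 in untreated TAM over PEC and a mean of 0.43, and one of 0.20 with LPS in PEC. The other subunits of the C1 complex, C1ra, C1rb and C1s, were not among the named features.

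The lectin pathway, which starts the cascade from sugars on microbes, held the 1 measured complement gene outside C1q that passed the test. Fcna, encoding the lectin ficolin A, was lower in TAM in both comparisons with PEC. Untreated, its log2 ratios were -4.09 on TAM-b, -6.04 on TAM-2R, -5.94 on TAM-3 and -4.87 on TAM-8 (mean -5.23 ± 0.93, SD, n = 4, limma, adjusted p = 0.00042). After LPS they were -5.06 on TAM1 and -4.93 on TAM7 (mean -5.00 ± 0.10, SD, n = 2, limma, adjusted p = 0.0075). With LPS in PEC it was at 1.94 and 1.35 and did not pass (limma, adjusted p = 0.427). Its ratios thus stood far below 0 on the same arrays on which those of C1qa were above it. With the exchanged arrays not turned, its mean was -2.21 untreated and 0.07 after LPS, and both calls were lost (limma, adjusted p = 0.741 and 1). Within print v3p6 the means stayed as large, at -5.35 and -5.06, and neither passed (limma, adjusted p = 0.462 and 0.642). The call after LPS was also lost on its own arrays alone (adjusted p = 0.228) and, with 1 array left in the comparison, without TAM1 (-4.93, adjusted p = 0.162) or TAM7 (-5.06, adjusted p = 0.0728). Of the other 4 measured genes of this list, the collectins Mbl1 and Mbl2 and the proteases Masp1 and Masp2, none passed. Mbl1 was at 1.06 in TAM with LPS over PEC with LPS, Masp1 at 0.67 and Mbl2 at -1.40 with LPS in TAM.

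No gene of the remaining roles passed the test in any comparison. In the alternative pathway, the inhibitory protease Cfi was at 1.46 ± 0.86 and above 0 on 4 of 4 arrays in untreated TAM (SD, n = 4, limma, adjusted p = 0.168), and Cfp, the stabiliser properdin, at 0.72 with LPS in TAM. Of the terminal pathway, which forms the membrane attack complex, 4 of 7 genes were measured and all 4 were below 0 in untreated TAM (median -0.38). The lowest was C8a at -1.70 ± 1.48 (SD, n = 4, limma, adjusted p = 0.214), and it was at -1.11 with LPS in TAM. Hc, which encodes C5, was at 1.36 in TAM with LPS over PEC with LPS, and C9 at -0.64 with LPS in PEC.

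Regulators and receptors of complement were measured for 7 of 13 and 10 of 15 genes. Among the regulators, Cr1l, a membrane inhibitor of C3 activation, was at -2.14 ± 0.64 in TAM with LPS over PEC with LPS (SD, n = 2, limma, adjusted p = 0.173). Cr1l passed in only 2 of 13 alternatives, with arrays scaled or in the loop fit (limma, adjusted p = 0.0251 and 0.0194). With the exchanged arrays not turned its mean was -0.45, and on its own arrays alone it did not pass (limma, adjusted p = 0.298). Clu, encoding clusterin, was at -1.94 ± 2.25 and Serping1, the inhibitor of C1r and C1s, at -0.56 ± 0.11 with LPS in PEC (SD, n = 2), while Cd59a was at 0.80 with LPS in TAM. Among the receptors, Itgb2, the beta chain of the integrins that bind cleaved C3, was at -2.2 ± 1.92 in untreated TAM (SD, n = 4), 1.69 ± 1.20 with LPS in PEC and -2.16 ± 1.12 in TAM with LPS over PEC with LPS (SD, n = 2). Limma gave adjusted p-values of 0.262, 0.842 and 0.667 for these. Itgb2 shared its exact value with Cd3d, a listed T cell gene, on TAM-2R (-2.516) and on TAM-16 (1.59), so its TAM-2R value may be no measurement of Itgb2. C3ar1, the receptor of C3a, was at -1.75 ± 2.32 with LPS in TAM (SD, n = 2). Of proteins described as binding C1q, the chaperone Calr was at 0.63 ± 0.73, Cd93 at -0.41 ± 0.57, Lrp1 at -0.88 ± 1.05 and C1qbp at 0.06 ± 0.77 in untreated TAM (SD, n = 4).

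**Figure D5:**
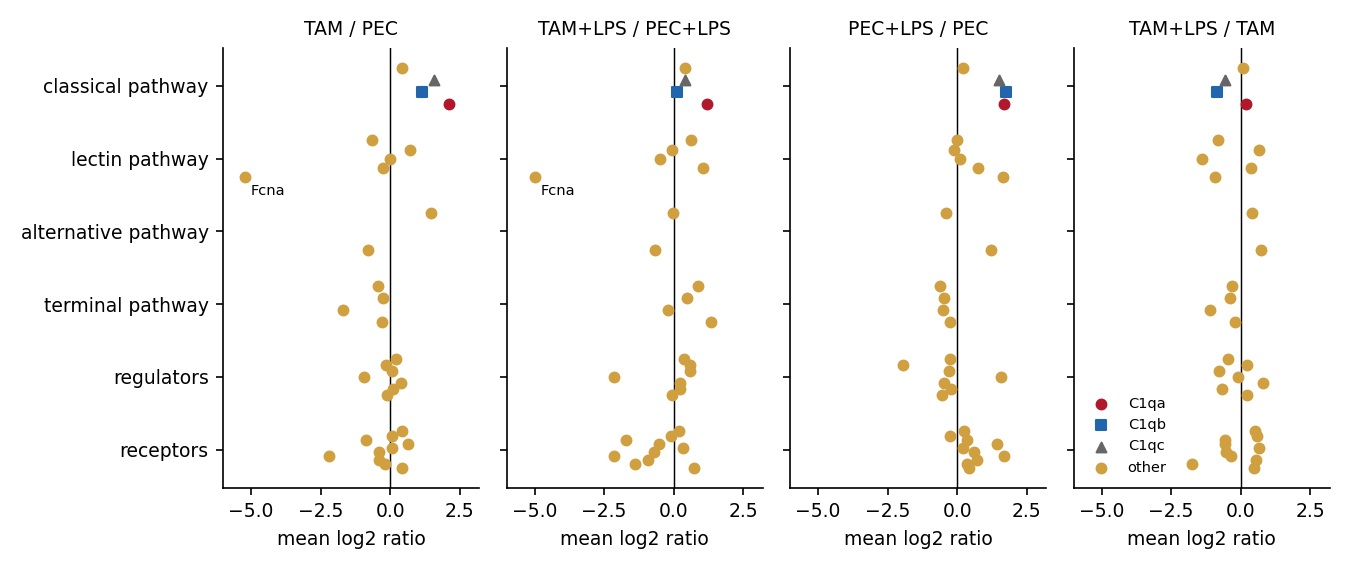
Mean log2 ratio (horizontal axis) of each of the 32 measured complement genes in the 4 comparisons (panels), by role in the cascade (vertical axis); each point is 1 gene. The C1q chains lie to the right of 0 in TAM over PEC and in PEC with LPS over PEC, and Fcna lies far to the left in both comparisons of TAM with PEC.

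Other proteins with a C1q domain were measured for 7 of 26 genes. In untreated TAM 4 were above 0 (median 0.86), with C1qtnf6 the highest at 1.75 ± 0.43 (SD, n = 4, limma, adjusted p = 0.188). The 3 below 0 were C1qtnf2 at -1.34 ± 2.31, Caprin2 at -0.88 ± 0.77 and Emilin2 at -0.65 ± 0.44 (SD, n = 4). None of the 7 passed in any comparison. With LPS in PEC, 2 of the 7 were above 0 (median -0.05). Among genes for the uptake of apoptotic cells, a process in which C1q takes part, 16 of 25 were measured. Of these, 7 were above 0 and 9 below in untreated TAM (median -0.37). The receptor tyrosine kinase Axl was the 1 gene that passed the test (2.18 ± 0.83, SD, n = 4, limma, adjusted p = 0.0451). Of the Fc receptor genes 7 of 10 were measured. In untreated TAM 4 of the 7 were above 0 (median 0.23), and Fcrls was the 1 that passed the test (2.96 ± 1.02, SD, n = 4, limma, adjusted p = 0.0225).

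Markers of macrophages lay mostly below 0 in untreated TAM. Of 20 macrophage genes 13 were measured, and 3 of the 13 were above 0 and 10 below (median -0.66, with array medians from -1.25 to 0.14), while none passed the test. The lowest was Cd68, a lysosomal glycoprotein of macrophages, with a mean of -1.74 ± 1.41 and below 0 on 4 of 4 arrays (SD, n = 4, limma, adjusted p = 0.241). Lyz2 of the same list, at -1.55 ± 0.71, was also below 0 on 4 of 4 arrays (SD, n = 4, limma, adjusted p = 0.232). The highest was Aif1, a calcium-binding protein of macrophages, with a mean of 2.75 ± 1.30 and above 0 on 4 of 4 arrays (SD, n = 4, limma, adjusted p = 0.0686). The remaining 2 of the 3 above 0 were the Fc receptor Fcgr1 at 1.10 ± 0.52 and the transcription factor Maf at 0.83 ± 0.70. Both were above 0 on 4 of 4 arrays (SD, n = 4). With LPS in PEC, 12 of the 13 were above 0 (median 0.77), as the C1q chains were. After LPS, 9 of the 13 were below 0 in TAM over PEC (median -1.12), and with LPS in TAM 11 of the 13 (median -0.88), as C1qb and C1qc were. The arrays differed in the latter comparison, with array medians of -1.88 on TAM-trial and 0.18 on TAM-16. The part of cell number or of macrophage content in the C1q ratios was not tested.

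Markers of other cells that adherent harvests can hold were set beside C1q in untreated TAM as well. Of 14 measured fibroblast genes 11 were above 0 (median 0.80, array medians from 0.18 to 1.85), and 1, Igfbp4, passed the test (2.198 ± 0.87, SD, n = 4, limma, adjusted p = 0.0412). Of 10 neutrophil genes 7 were above 0 (median 0.88, array medians from -0.15 to 2.15), of 8 endothelial genes 6 (median 0.15), and of 13 T, NK and B cell genes 6 (median -0.22), and none of these passed. With LPS in PEC the medians were 0.23, 0.88, -0.18 and -0.30. Their part in the C1q ratios was not tested.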

How the data were processed

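The authors deposited log ratios of 9596 features for each of 10 arrays, and these were read as log2. Base 2 was taken because the largest value, 11.687, would be a ratio of 119014 in base e, above the highest 16-bit value of 65535. Image analysis, background correction, normalization, dyes and the base of the log were not given in the sources used here. Channel intensities were not used here, so no background correction or filter on dim spots could be tried. Some values repeat between different genes of an array. On TAM-16, Cd79a, Col1a2, Nkg7 and Padi4 were each at 0.005, and on TAM-3, Clu, Fcgr3 and Lgals3 were each at 0.077. The reason was not tested, and such values were kept in the means. Array medians lay between -0.20 and 0.02 and scaled median absolute deviations between 0.69 and 1.17.

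Features were named by the platform annotation (7486 with 1 symbol, 483 with several, 1627 with none), and features of 1 gene were averaged, which gave 8905 genes and features, of which 6795 were named. Promoter windows were RefSeq's. Limma 3.58.1 in R 4.3.3 (lmFit, eBayes) was fitted to all 10 arrays with 1 mean for each of the 4 comparisons (6 residual and 3.841 prior degrees of freedom). P-values were two-sided and Benjamini-Hochberg adjusted over 8905 rows at a threshold of 0.05. The fit was tested on simulated data. The comparisons share conditions, so their values are given side by side.

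The members, gene lists and tests were chosen with earlier results of these data known. The calls of listed genes such as Fcna, Axl, Fcrls and Igfbp4 are therefore no independent support. Complement genes were named when past the threshold or among the 3 highest or 3 lowest means of a comparison, and like genes as the 5 with the highest r. Genes binding C1q, C1qtnf2, C1qtnf6, Caprin2, Emilin2, Cd68, Lyz2, Aif1, Fcgr1 and Maf were added after their values were seen. Alternatives covered coding of the exchanged arrays, centring, scaling, quantile normalization, a loop fit, a dye term, print within or as a random block, own arrays only, single features and leaving out arrays; removal of feature position was added later.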

Additional observations from a re-analysis of the deposited data

Results flagged for a closer look

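The LPS responses of C1qb and C1qc had opposite signs in PEC and TAM, above 0 on both arrays of PEC and below 0 on both of TAM. The same was so for 8.84% of all genes. On TAM-16, where the array median was -0.20, C1qb at -0.29 and C1qc at -0.21 lay near the middle. There 55.4% and 51.1% of all genes were at or above them, so only on TAM-trial did the ratios as deposited stand apart from the middle. With feature position removed, C1qb was at -0.28 on TAM-trial and -0.54 on TAM-16, so its fall was not clear on TAM-trial either. C1qc was then at -1.66 on TAM-trial and -0.74 on TAM-16. The differences of TAM minus PEC were -2.60 and -2.08, and in the loop fit -1.70 and -1.56. Of the other complement genes named for their LPS response, C3ar1 went the same way, with a difference of -2.09. Cd59a and Masp1 went the other way, below 0 on both arrays of PEC and above 0 on both of TAM, with differences of 1.27 and 0.79. The test of each difference did not pass in limma (adjusted p = 0.719 for C1qb and C1qc, 0.752 for C3ar1, 0.723 for Cd59a and 0.998 for Masp1).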

How the results depend on the processing

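The direction of C1qa and C1qb in untreated TAM over PEC and in the LPS response of PEC was kept in each alternative run, with ranges of 1.37 to 2.33 and 0.67 to 1.38 for the former and 1.08 to 1.999 and 1.31 to 2.13 for the latter. In untreated TAM, C1qa moved to 1.37 with the exchanged arrays not turned and to 1.40 with feature position removed, and C1qb to 0.67 with the arrays not turned and 1.38 in the loop fit. With LPS in TAM, C1qa reversed to -0.41 with a dye term, -0.30 within print v3p6 or without TAM-trial and -0.22 with position removed (0.69 without TAM-16). In TAM with LPS over PEC with LPS, C1qb reversed to -0.33 in the loop fit and -0.48 within v3p6 or without TAM7 (0.72 without TAM1), and C1qc to -0.32 within v3p6 or without TAM7 (1.14 without TAM1). Cfp with LPS in TAM reversed to -0.12 with a dye term and -0.20 within v3p6 or without TAM-trial (1.64 without TAM-16). With the arrays not turned, Fcna, Hc and Mbl1 in TAM with LPS over PEC with LPS reversed to 0.068, -0.54 and -0.49. The causes were not tested. The print block gave a correlation of -0.029. Calls over all genes in untreated TAM numbered 41, and 0 with the arrays not turned or within v3p6, 2 on own arrays, 7 after quantile normalization, 12 after scaling, 17 with a dye term and 6 to 23 with 1 array left out. With LPS in PEC the 1 call became 0 within v3p6 or on own arrays, 2 to 5 with the arrays not turned, scaling, quantile normalization or position removed, 28 in the loop fit, and 48 to 85 with 1 array left out, where the lone array is assumed to vary like the other comparisons. In TAM with LPS over PEC with LPS the 6 became 0 with the arrays not turned, within v3p6 or on own arrays, 3 without TAM1, 14 with the print block, 19 with position removed, 81 after scaling and 137 in the loop fit. The difference between the LPS responses lay between -3.16 and -1.66 for C1qb and between -2.74 and -1.42 for C1qc over its 15 alternatives. No paired analysis was possible because the groups share fewer than 2 replicate numbers.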
